A study of Mus musculus with 12 samples.

Results

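Genes of the neuronal microtubule cytoskeleton and of axon polarity were examined in injured spinal cord: the polarity kinases BRSK1 and BRSK2, the microtubule-binding protein APC2, the tubulins TUBA4A and TUBB3, the microtubule-associated proteins MAP1B and MAPT, the stathmins STMN2 and STMN3, and BEX1. These 10 genes are 10 of the 13957 distinct symbols listed in the data. They were chosen by symbol, with the genotype values given here already known. All 10 were listed above the lesion and 9 below it, where BRSK1 was not listed. Bulk RNA sequencing was done on segments of about 2 mm of spinal cord taken just above and just below a contusion at thoracic level 9, collected 14 days after the injury. All mice were males that carry human ApoE4 in place of the mouse gene, were operated on at 4 months of age and had the contusion. The 12 libraries fall into 4 groups of 3: ApoE4 synj1+/+ above the lesion, ApoE4 synj1+/- above the lesion, ApoE4 synj1+/+ below the lesion and ApoE4 synj1+/- below the lesion. The synj1+/- mice were bred with 1 inactivated copy of Synj1, synaptojanin 1 being a lipid phosphatase of synaptic vesicle endocytosis, and the labels do not say whether segments above and below came from the same mice.

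For each gene and site the deposited data give 1 pooled value per genotype, read as FPKM (fragment counts scaled by transcript length and sequencing depth) plus 1, because the lowest value is exactly 1. There are 0 columns of single libraries. The spread between mice and the number of reads behind each gene's value are therefore unknown, and every ratio below is a description without replicate error. A gene is called past the fold when its level in the group labelled synj1+/- is at least 25% higher, or at least 20% lower, than in synj1+/+. The table listed 13647 gene rows above the lesion and 12338 below. Levels also increase with the number of RefSeq transcripts of a gene. Above the lesion the median was 11.5 for genes with 1 transcript and 185 for genes with 10 or more. Levels of different genes were therefore set against each other only in cuts by level, such as genes at or above the median. Those cuts carry this dependence.

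SYNJ1, which checks the genotype labels, was higher in the group labelled synj1+/- at both sites, against the direction of the labels. Its pooled level was 1905 in synj1+/+ above the lesion and 2404 in the other genotype, a ratio of 1.26. Below the lesion the pooled levels were 1847 and 2593, a ratio of 1.40. Directions therefore rest on labels that this gene runs against. All ratios that follow are of the group labelled synj1+/- over synj1+/+.

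Axons are built on bundles of microtubules, hollow polymers of alpha and beta tubulin. Microtubule-associated proteins such as tau (MAPT) and MAP1B bind and stabilize the polymer, stathmins bind free tubulin dimers and favor disassembly, and plus-end proteins such as those of the APC family connect growing ends to the cell cortex. The BRSK kinases, also called SAD kinases, act under the kinase LKB1 (STK11) to set which neurite becomes the axon, and they phosphorylate tau. After spinal cord injury, regrowth and retraction of axons both depend on how this array is assembled and taken apart.

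The promoters of the 4 genes with the largest genotype ratios below the lesion are shown first. They were picked by these ratios alone, and all 9 listed genes differed in the same direction there. Each is the 250 bases before an annotated RefSeq start on GRCm38.p6, written 5′ to 3′ on the strand of the gene, and the capitals mark GC boxes (GGGCGG or its complement CCGCCC), the motif bound by Sp1-type factors. The APC2 window, for the first of its 4 annotated starts, is chr10:80295706-80295955 on the plus strand. The BRSK2 window is chr7:141949501-141949750 on the plus strand. The TUBA4A window is chr1:75219295-75219544 and the BEX1 window chrX:136215514-136215763, both on the minus strand.
APC2: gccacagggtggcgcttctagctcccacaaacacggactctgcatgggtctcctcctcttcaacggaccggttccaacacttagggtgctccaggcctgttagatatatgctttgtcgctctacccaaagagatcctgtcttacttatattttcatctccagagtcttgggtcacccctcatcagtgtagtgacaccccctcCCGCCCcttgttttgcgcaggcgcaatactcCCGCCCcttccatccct
BRSK2: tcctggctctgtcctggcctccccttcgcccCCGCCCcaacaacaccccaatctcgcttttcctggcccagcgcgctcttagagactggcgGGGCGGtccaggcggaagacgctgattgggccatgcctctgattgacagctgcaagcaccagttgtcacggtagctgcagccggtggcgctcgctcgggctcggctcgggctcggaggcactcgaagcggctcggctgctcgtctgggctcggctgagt
TUBA4A: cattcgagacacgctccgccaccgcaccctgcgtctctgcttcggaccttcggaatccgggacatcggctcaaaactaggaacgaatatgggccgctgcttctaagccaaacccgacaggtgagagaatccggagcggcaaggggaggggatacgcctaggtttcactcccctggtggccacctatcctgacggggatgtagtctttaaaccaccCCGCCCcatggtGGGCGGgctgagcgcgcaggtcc
BEX1: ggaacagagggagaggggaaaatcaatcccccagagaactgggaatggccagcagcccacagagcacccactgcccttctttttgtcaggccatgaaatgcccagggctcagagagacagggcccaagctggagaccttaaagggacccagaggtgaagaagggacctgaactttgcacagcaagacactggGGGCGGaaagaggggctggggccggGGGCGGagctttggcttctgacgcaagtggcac
Each of these 4 windows held 2 GC boxes, as did the TUBB3 window, and the MAP1B and BRSK1 windows held 1 each. Of the 8 members with promoter windows in RefSeq's table, 7 held at least 1 GC box on either strand in some window and STMN3 held none. Counted by window, 7 of the 11 windows of these members held the motif, which was found in 32.7% of all 32841 RefSeq windows of this length. The GC content of the 4 windows was 54.8% for APC2, 67.2% for BRSK2, 61.6% for TUBA4A and 59.6% for BEX1, against a median of 52.4% over all windows. The other 3 APC2 windows held no GC box. A TATA box (TATAAA on either strand) was found in the MAP1B window and in 12.4% of all windows. A match describes the letters of a window, and no binding was measured.

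Below the lesion, all 9 listed genes had a higher pooled level in the group labelled synj1+/-, with APC2, TUBA4A, BEX1, BRSK2 and STMN3 leading. A ratio over 1 was found for 52.8% of all genes listed there. The median log2 ratio of the 9 genes was 0.22, against 0.01 over all genes. APC2 was past the fold in the higher direction, as were 8.06% of all genes, and no member was past it in the lower direction, as were 11.5% of all genes. Among genes at or above the median level of the site, which all 9 were, 6.31% were past the fold in the higher direction and 7.38% in the lower. Above the lesion, the members were split in direction: 5 of the 10 had a ratio over 1, as did 49.0% of all genes. Their median log2 ratio was 0.01, against -0.00 over all genes. BEX1 was past the fold in the higher direction, against 4.18% of all genes and 1.93% of those at or above the median level, and no member was past it in the lower direction, against 7.45% of all genes and 4.29% of those at or above the median level. The genes were chosen with these ratios known, so the counts describe the choice and nothing was read from them about the family.

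**Figure D1:**
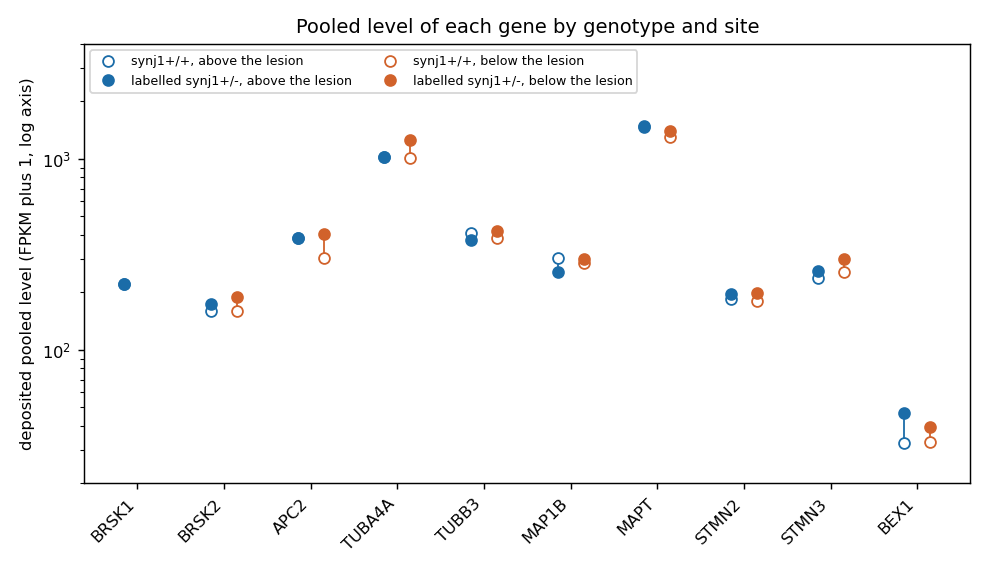
Pooled level (read as FPKM plus 1, log axis) of each gene. Open circles are synj1+/+ and filled circles the group labelled synj1+/-, above the lesion in blue and below it in orange. Each circle is 1 pooled value without error, and the widest gaps between genotypes are those of BEX1 above the lesion (32.7 and 46.9) and APC2 below it (304 and 405).

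APC2, the neuronal relative of the tumor suppressor APC, binds microtubules along axons and takes part in axon guidance and neuronal migration. Its gene lies at chr10:80295977-80318263 on the plus strand. Above the lesion the pooled level was 384 in synj1+/+ and 388 in the group labelled synj1+/-, a ratio of 1.01. Below the lesion it was 304 and 405, a ratio of 1.33 and a log2 ratio of 0.42, higher than that of 96.1% of all genes listed there. The level that stood apart was that of synj1+/+ below the lesion, the lowest of the 4. The ratio of the level below over that above was 0.791 in synj1+/+ and 1.05 for the group labelled synj1+/-, although the sites were downsampled and normalized separately, so that these ratios carry the scaling of each site.

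BRSK1 and BRSK2 are the kinase pair of axon specification, and both genes are on chromosome 7, at chr7:4690604-4715997 and chr7:141949751-142004247, plus strand. BRSK1 was nearly equal between genotypes above the lesion, with pooled levels of 221.0 in synj1+/+ and 220.9 in the group labelled synj1+/-. BRSK2 was higher in the group labelled synj1+/- at both sites. Its levels were 160.4 and 175 above the lesion (ratio 1.09) and 160.5 and 189 below it (ratio 1.18), the latter higher than the ratio of 85.0% of all genes. The level in synj1+/+ was thus nearly the same above and below the lesion. BRSK1 overlaps Tmem150b on the opposite strand over 9166 bases, and with an unstranded library reads of the overlap cannot be told apart. TMEM150B was listed at 28.0 and 29.4.

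TUBA4A encodes an alpha tubulin abundant in mature neurons, and TUBB3 the class III beta tubulin used as a marker of neurons. The TUBA4A gene lies at chr1:75214228-75219865 on the minus strand. Above the lesion its pooled levels were 1024 in synj1+/+ and 1019 in the group labelled synj1+/-, close to equality. Below the lesion they were 1009.95 and 1255, a ratio of 1.24 and a log2 ratio of 0.31, just under the fold and higher than that of 91.5% of all genes. Here 3 of the 4 pooled levels lay close together, and that of the tissue labelled synj1+/- below the lesion stood above them. TUBA4A shares 1379 bases with Stk16 on the opposite strand, and STK16 had ratios of 0.976 above and 1.02 below the lesion.

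TUBB3, at chr8:123411424-123422015 on the plus strand, was lower above the lesion for the group labelled synj1+/-, with levels of 409 and 378 and a ratio of 0.926. Below the lesion it was higher, with levels of 388 and 418 and a ratio of 1.08. The direction therefore turned between the sites, with ratios of similar size on either side of equality. Tubulin genes share long stretches of coding sequence, and the annotated readthrough Gm20388 covers the TUBB3 gene over 10592 bases, so the split of reads among these genes is uncertain.

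MAP1B, a microtubule-associated protein of growing axons, and MAPT, which encodes tau, bind along the microtubule lattice. MAP1B, at chr13:99421446-99516540 on the minus strand, had levels of 305 in synj1+/+ and 257 for the group labelled synj1+/-, measured above the lesion, a ratio of 0.843 that was higher than that of only 11.9% of all genes there. Below the lesion the levels were 284 and 298, a ratio of 1.05. With the genotypes as labelled, MAP1B had the lowest ratio of the members at both sites. MAPT, at chr11:104231390-104332090 on the plus strand, had levels of 1484 and 1463.5 above the lesion (ratio 0.986) and 1298 and 1399 below it (ratio 1.08). An antisense gene, Gm11659, overlaps MAPT over 8460 bases and its reads cannot be separated here.

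STMN2 and STMN3 encode neuronal stathmins, which regulate microtubule dynamics in growth cones. Both were higher in the group labelled synj1+/- at both sites, and both had a higher ratio below the lesion than above it. STMN2, at chr3:8509360-8561606 on the plus strand, had levels of 186 and 197 above the lesion (ratio 1.06) and 181 and 198 below it (ratio 1.09). STMN3, at chr2:181306459-181314500 on the minus strand, had levels of 238 and 259 above (ratio 1.09) and 257 and 299 below (ratio 1.16). No annotated gene overlaps either of them. None of these ratios was past the fold.

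BEX1, a small X-linked protein linked to neurotrophin receptor signaling and to axon regrowth, showed the opposite site pattern. The gene lies at chrX:136213972-136215513 on the minus strand. Above the lesion its pooled level was 32.7 in synj1+/+ and 46.9 in the group labelled synj1+/-, a ratio of 1.43 and a log2 ratio of 0.52 that was higher than that of 98.9% of all genes. Below the lesion the levels were 32.8 and 39.6, a ratio of 1.21. The levels in synj1+/+ were nearly equal at the sites. At levels this low the offset weighs on the ratio, and with a pseudocount of 10 in place of 1 the log2 ratio above the lesion was 0.42. Tceal7 overlaps the gene over 735 bases on the opposite strand.

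**Figure D2:**
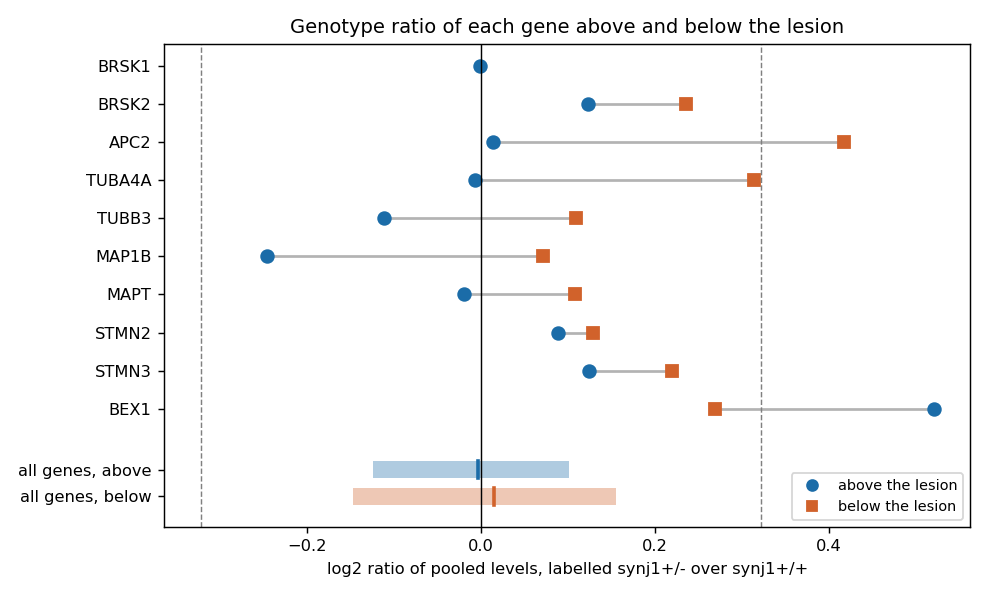
Log2 ratio of pooled levels, group labelled synj1+/- over synj1+/+, for each gene above (blue circles) and below the lesion (orange squares), with dashed lines at the fold used for calls and, at the bottom, the middle quartiles (bars) and median (ticks) of all genes of each site. All 9 squares lie to the right of 0, whereas the circles spread from -0.25 for MAP1B to 0.52 for BEX1.

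The ratios were next compared between the sites for the 9 genes listed at both, because a factor that scales both genotypes of a site cancels in its genotype ratio. The log2 ratio was higher below than above the lesion for 8 of the 9 genes, as it was for 53.9% of all 12023 genes listed at both sites, with a median difference of 0.13 against 0.02. The difference was 0.40 for APC2, 0.32 for TUBA4A, 0.32 for MAP1B and 0.22 for TUBB3. APC2 was past the same fold in this comparison, as were 9.99% of all genes. The differences were smaller for MAPT (0.13), BRSK2 (0.11), STMN3 (0.10) and STMN2 (0.04). For BEX1 the log2 ratio was lower below the lesion by 0.25, and in the group labelled synj1+/- its level below was 0.843 of that above. The ratio of the level below over that above in the group labelled synj1+/- was 1.23 for TUBA4A and 1.16 for MAP1B, against 0.986 and 0.932 in synj1+/+. With 1 pooled value per group, none of these differences between sites could be tested. The genes were chosen with the ratios at both sites known, so the 8 of 9 describes the choice.

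**Figure D3:**
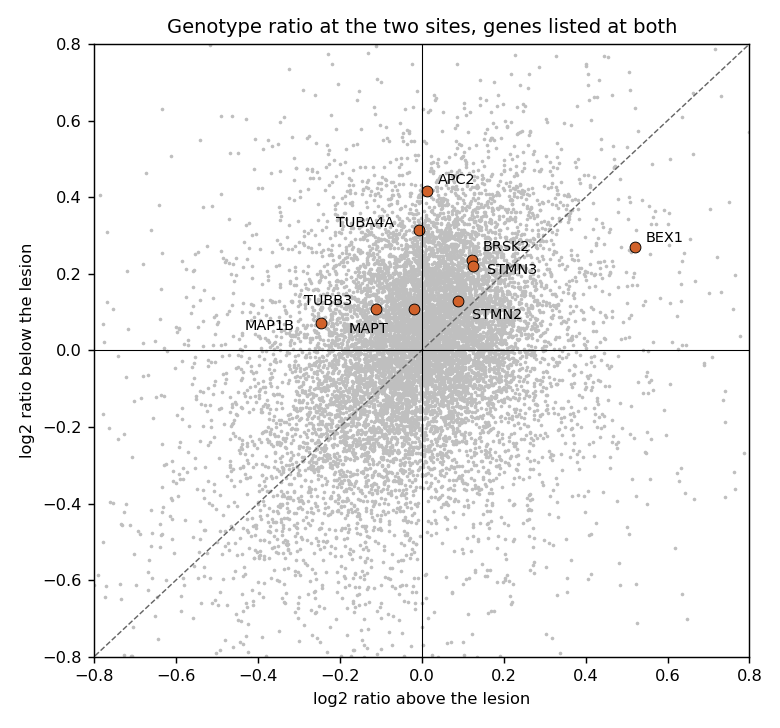
Log2 ratio above the lesion (horizontal axis) and below it (vertical axis) of 11705 genes listed at both sites (gray, each axis cut at 0.8 on either side, with 318 genes outside) and of the 9 members (orange), with a dashed line where both ratios are equal. All members except BEX1 lie above the dashed line, and APC2 and TUBA4A sit near 0 on the horizontal axis.

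The other genes of the microtubule and polarity machinery were described from 15 lists holding 167 other listed genes above the lesion and 135 below. Above the lesion 91 of the 167 (54.5%) had a ratio over 1, and the median log2 ratio was 0.02. Past the fold were 2 in the higher direction (1.20%, against 4.18% of all genes) and 7 in the lower (4.19%, against 7.45%). Among all genes at or above the median level of that site, the shares were 1.93% and 4.29%. Below the lesion 90 of the 135 (66.7%) had a ratio over 1, 11 were past the fold in the higher direction (8.15%, near the 8.06% of all genes) and 6 in the lower direction, and the median was 0.09. The share past the fold in the lower direction, 4.44%, stood beside 11.5% of all genes. Among all genes at or above the median level of the site, 7.38% were past it in the lower direction and 6.31% in the higher.

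Among tubulins, all 5 listed alpha tubulins had a ratio over 1 below the lesion, against 52.8% of all genes, and 0 were past the fold. TUBB4A, a beta tubulin of oligodendrocytes and neurons, had levels of 825 and 921 above (ratio 1.12) and 703 and 832 below (ratio 1.18). TUBB6, a broadly expressed beta tubulin, was the 1 tubulin past the fold in the lower direction, at 18.7 and 12.6 below the lesion. In the higher direction, TUBD1 was past it above the lesion (9.12 and 12.9, ratio 1.42) and TUBG2 below it (17.6 and 23.7, ratio 1.35). TUBB6, TUBD1 and TUBG2 were named after their values were seen. STMN1, a stathmin outside the members, had ratios of 1.13 above and 1.21 below, and STMN4, listed above the lesion, had a ratio of 1.07.

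Among kinases that act on tau and other microtubule-associated proteins, 3 of 10 were past the fold in the higher direction below the lesion and 0 in the lower, against 8.06% and 11.5% of all genes. CAMK2A, a subunit of the calcium/calmodulin-dependent kinase of synapses, had levels of 116 and 170.1 (ratio 1.47), the tau-tubulin kinase TTBK1 62.6 and 79.5 (ratio 1.27), and CDK5R2, an activator of CDK5, 66.6 and 83.6 (ratio 1.26). Above the lesion 0 of 13 were past the fold in the higher direction, against 4.18% of all genes. TTBK2 was past it in the lower direction, at 54.7 and 42.8, as were 7.45% of all genes. Below the lesion, 5 of 13 neuron markers were past the fold in the higher direction, beside the 3 of 10 kinases. Among polarity regulators below the lesion, 2 of 28 were past the fold in the higher direction and 1 in the lower, against 8.06% and 11.5% of all genes. The higher ones were TIAM1, an exchange factor for Rac, at 84.4 and 118 (ratio 1.39), and PARD6A, a scaffold of the Par complex, at 81.9 and 105 (ratio 1.28). RAP1B, a small GTPase of axon specification, was the 1 gene of this list past the fold in the lower direction, at 30.1 and 21.9 (ratio 0.726). STK11, the kinase upstream of the BRSK pair, had ratios of 1.03 above and 0.984 below the lesion.

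Lattice-binding proteins other than MAP1B and MAPT included no gene past the fold. With MAP1B and MAPT, 11 of the 13 listed had a ratio over 1 below the lesion, against 52.8% of all genes. Above it 7 of 18 did, against 49.0% of all genes. The counts cover different sets, because MAP7D1, MAP7D2, MAP9, DCLK1 and EML2 were listed only above. MAP7, which recruits the motor kinesin-1 to microtubules, was lower in the group labelled synj1+/- at both sites, with levels of 1102 and 945 above (ratio 0.857) and 944 and 859 below (ratio 0.911). Enzymes that modify tubulin had a median log2 ratio of -0.00 above and 0.07 below the lesion. Among them, TTLL5, a tubulin glutamylase, had levels of 496 and 595 below (ratio 1.20), whereas SVBP, a partner of the vasohibin tubulin carboxypeptidases, was past the fold in the lower direction at 48.3 and 37.6 (ratio 0.777). Severing enzymes had medians of -0.07 above and 0.07 below, and the katanin-like KATNAL1 went from a ratio of 0.915 above to 1.19 below.

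The collapsin response mediator proteins, which carry tubulin dimers to growing ends, included 0 genes past the fold, with medians of 0.06 above and 0.13 below the lesion. CRMP1 had levels of 61.5 and 68.8 above (ratio 1.12), and DPYSL4 33.0 and 39.1 below (ratio 1.19). Tubulin folding cofactors had medians of -0.01 above and 0.11 below, led by TBCA above the lesion (52.2 and 65.1, ratio 1.247) and TBCB below it (109 and 132, ratio 1.20). Nucleation factors were the list of these whose median was not higher below the lesion, at 0.07 above and 0.04 below, with TUBGCP6 of the gamma-tubulin ring complex at ratios of 1.15 and 1.21.

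At microtubule ends, CAMSAP3, which caps and stabilizes minus ends, had levels of 164 and 220.4 below the lesion, a ratio of 1.35 beside the 1.33 of APC2. APC, the ubiquitous relative of APC2, was lower above the lesion for the group labelled synj1+/-, with levels of 786 and 598 (ratio 0.761), and was not listed below it. PHLDB2, which anchors microtubule ends at the cell cortex, was past the fold in the lower direction below the lesion, at 54.0 and 31.5 (ratio 0.584). The spectrin SPTBN4 of the axon initial segment had levels of 208 and 255 below the lesion (ratio 1.23).

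The relatives of BEX1, a cluster of BEX and TCEAL genes on the X chromosome, were the list with the highest median ratio above the lesion. All 10 listed members, BEX1 included, had a ratio over 1 there, against 49.0% of all genes, with a median log2 ratio of 0.24. Below the lesion 7 of 9 had a ratio over 1, against 52.8% of all genes. Past the fold in the higher direction were 2 above and 3 below, against 4.18% and 8.06% of all genes. In the lower direction they were 0 and 1, against 7.45% and 11.5%. TCEAL5 had levels of 114 and 142 above the lesion (ratio 1.249) and TCEAL1 54.4 and 66.6 (ratio 1.22). BEX4 was past the fold at both sites, with levels of 26.4 and 37.4 above (ratio 1.41) and 21.4 and 30.9 below (ratio 1.45). Below the lesion BEX2 had a ratio of 1.26 and TCEAL6 of 1.28, whereas TCEAL8 was past the fold in the lower direction (56.8 and 45.2, ratio 0.796). Members of this cluster are similar in sequence, so the split of reads among them is uncertain.

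Growth cone and regeneration-associated proteins did not share this direction. Below the lesion 2 of 8 had a ratio over 1, against 52.8% of all genes, with a median log2 ratio of -0.11. SPRR1A, a small proline-rich protein induced in injured neurons, was lower in the group labelled synj1+/- at both sites, at 83.9 and 52.1 above (ratio 0.621) and 68.5 and 24.3 below (ratio 0.354). GAP43, a protein of growing axon terminals, had ratios of 1.02 above and 0.990 below the lesion. Growth cone genes past the fold were 2 of 9 above and 1 of 8 below, all in the lower direction, against 7.45% and 11.5% of all genes. SPRR1A was among them at both sites.

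**Figure D4:**
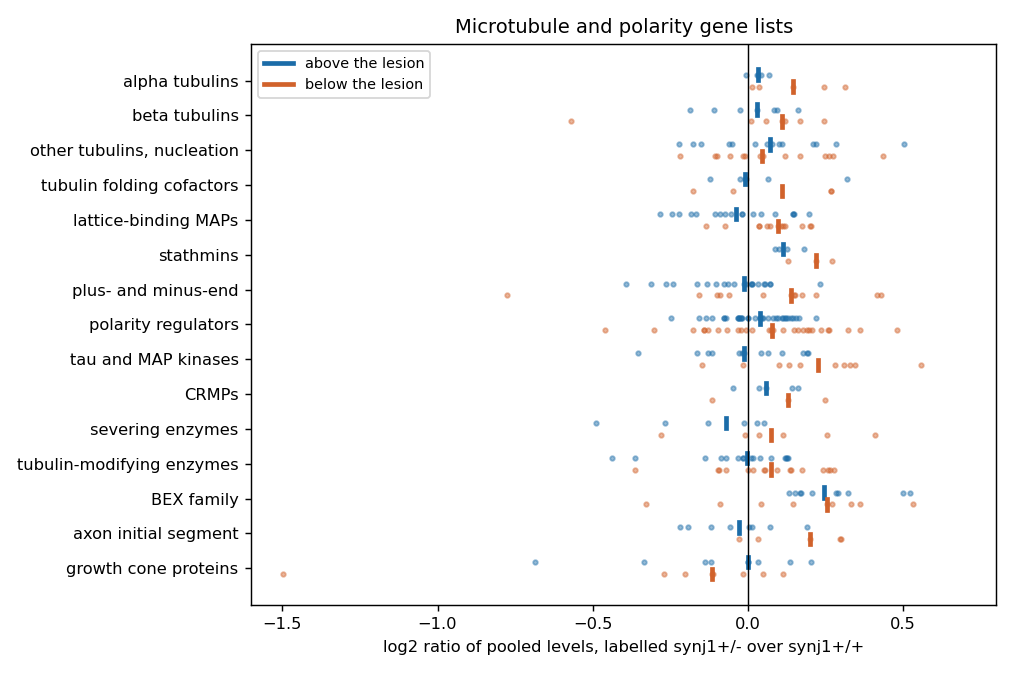
Log2 ratio of each listed gene (dots) and the median (ticks) of the 15 microtubule and polarity lists, members included, above (blue) and below the lesion (orange). Medians of the alpha tubulin, beta tubulin, stathmin and tau and MAP kinase lists lie further right below the lesion than above it, whereas growth cone proteins lie to the left of 0 below, with SPRR1A at -1.50.

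Markers of cell types moved with the genotype labels in these bulk segments. Neuron markers had a median log2 ratio of 0.12 above the lesion (14 of 17 over 0) and of 0.20 below it (12 of 13). The shares of all genes over 0 were 49.0% and 52.8%. Past the fold in the higher direction were 1 of 17 above and 5 of 13 below, against 4.18% and 8.06% of all genes. The summed level of the markers went from 21829 to 24423 above and from 17064 to 21165 below. SNAP25, a synaptic membrane fusion protein, had levels of 5272 and 6929 below the lesion, and SYT1, the calcium sensor of synaptic vesicles, 332 and 481. Against the neuron median, 5 of the 9 members had a higher ratio below the lesion and 4 a lower one, and 3 of 10 had a higher ratio above it. With ratios set relative to the neuron markers, a scale chosen after seeing the data, 0 members were past the fold below the lesion, where APC2 had a log2 ratio of 0.22. Above the lesion, on the same scale, BEX1 was past it in the higher direction (0.40) and MAP1B in the lower (-0.36). The between-site difference had a median of 0.17 over the 13 neuron markers listed at both sites, beside 0.13 for the members.

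Markers of immune cells, fibroblasts and astrocytes had lower summed levels in the group labelled synj1+/-. Those of microglia and macrophages had median log2 ratios of -0.46 above (9 of 14 past the fold in the lower direction) and -0.65 below the lesion (9 of 11), and their summed level below was 3047 in synj1+/+ and 1951 in the group labelled synj1+/-. Fibroblast and meningeal markers had medians of -0.49 above (7 of 9 past the fold in the lower direction) and -2.76 below (10 of 10). Over all genes, 7.45% were past the fold in the lower direction above the lesion and 11.5% below it. COL3A1, a fibrillar collagen, had levels of 69.9 and 7.91 below the lesion. Astrocyte markers had medians of -0.18 above and -0.17 below, and their summed level below the lesion was 18836 and 15218. Of 9 endothelial markers, 7 had a ratio over 1 above the lesion and 2 below it, against 49.0% and 52.8% of all genes. Their medians were 0.06 and -0.19.

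Oligodendrocyte markers lay near equality, with medians of -0.05 above and 0.05 below the lesion, while MBP, MAG and CNP were not listed at either site. Medians above and below were -0.12 and -0.20 for oligodendrocyte precursors, -0.12 and -0.37 for Schwann cells, -0.03 and 0.23 for ependyma and 2.17 and 0.37 for erythroid genes. Of the markers of sensory ganglion neurons, which also use many of the members, 5 of 10 were listed above the lesion, with a median of 0.08, and 4 below, with a median of 0.12. AVIL, TRPV1 and SCN10A were not listed. Fewer cells of a type and less RNA per cell cannot be told apart in bulk tissue, and the part of the cell makeup in the ratios of the members was not tested beyond the scale relative to neuron markers.

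**Figure D5:**
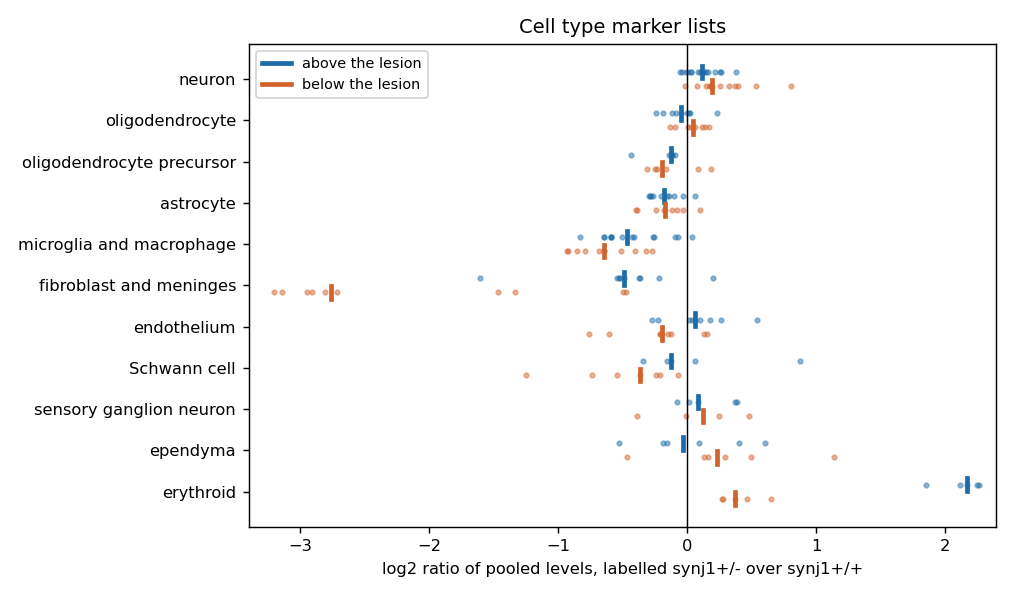
Log2 ratio of each listed marker (dots) and the median (ticks) for 11 cell types, above (blue) and below the lesion (orange). Neuron medians lie to the right of 0 at both sites, and fibroblast and meningeal markers lie furthest to the left below the lesion, with a median of -2.76.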

How the data were processed

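RNA was sequenced from 12 spinal cord libraries, 3 per genotype and site. As given in the Methods and the submitters' processing notes, the authors reduced the reads of each site to those of its smallest library, aligned them with STAR 2.5.4b to GRCm38.p6, and summarized genes with the Cufflinks suite (Cuffdiff 1.3.0) and upper quartile normalization. The deposited values, pooled per genotype and site, were read as FPKM raised by 1. The authors' fold changes, p-values and q-values came with them and were not used, nor was a short list filtered on p. No library values were analysed, so no test, error or interval was computed here, and no paired analysis was possible.

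Ratios and log2 ratios of the deposited values were computed per gene with Python 3.11.15, pandas 2.3.3 and numpy 2.4.6, and figures with matplotlib 3.10.9. The calculation was tested on simulated data. Calls used 1.25-fold. Gene positions are from GENCODE M21 and promoters from RefSeq, both on GRCm38. Repeated symbols (6 rows, none a member) were left out between sites. All members are named, and per list up to 3 genes (markers up to 2) with the largest absolute log2 ratio at or above the median level were eligible. TUBB6, TUBD1, TUBG2, STK11, RAP1B, BEX4, GAP43 and the marker genes said not to be listed fall outside this rule and were named after their values were seen. The members and lists were chosen with earlier results of these data known.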

Additional observations from a re-analysis of the deposited data

How the results depend on the processing

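No paired analysis was possible because the deposited values are pooled per group and the groups share no replicate numbers; leaving out a replicate was not possible for the same reason. At a limit of 1.1-fold, 2 members were past it above the lesion (BEX1 higher and MAP1B lower, against 19.1% of all genes higher and 23.0% lower) and 5 below (all higher, against 27.5%). At 1.5-fold 0 members were past it at either site, against 0.791% and 1.16% of all genes in that direction. With ratios centred on the neuron markers, chosen after seeing the data, 2 members were past the fold above and 0 below. On that scale the median log2 ratio was -0.109 above and 0.0224 below, and the median difference between sites was 0.0462. The scale used 17 markers above and 13 below, so 0.0462 also carries the change of marker set. Over the 13 markers listed at both sites the median difference was 0.17, higher than the 0.13 of the members. The counts and medians moved by less than 1.5 times or 0.05 (log2) without the offset of 1, with a pseudocount of 10, without genes of low level, with genes listed at both sites, on 3 other scalings and with the mean in place of the median. Of 19 member values, 2 changed sign on a scaling over all genes, those of BRSK1 and TUBA4A above the lesion, both within 0.01 of 0. On the neuron marker scale 2 changed sign above the lesion (APC2 and STMN2) and 4 below (MAP1B, MAPT, STMN2 and TUBB3). With a pseudocount of 10 the log2 ratio of BEX1 was 0.42 above and 0.22 below, and 1.43% of all genes above and 3.25% below were past the fold in the higher direction, against 4.18% and 8.06%. The spread between mice limits every value and is unknown.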
